A study of Mus musculus with 6 samples.

Results

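The D and E cyclins, their kinases CDK4 and CDK6 and the CDK inhibitors Cdkn1b, Cdkn2a and Cdkn2b were followed in mouse embryonic stem cells cultured with or without a vitamin C derivative. The rows were found by gene symbol in the deposited table of 41345 array features. Each of the 10 genes is annotated to 1 feature. For 9 of them that feature carries a single symbol, while Ccne2 shares its feature with Ints8, a subunit gene of the Integrator complex. The cells were R1, an established embryonic stem cell line derived from a 129X1 x 129S1 embryo, and both groups were cultured without feeder cells on gelatin, with fetal bovine serum and the self-renewal cytokine LIF. The untreated group (n = 3) received no addition. The AA2G group (n = 3) was kept for 3 days with 0.74 mM (250 µg/ml) AA2G (ascorbic acid 2-glucose in the labels), a stabilised vitamin C that cells cleave to free ascorbate. Each sample was read on 1 Mouse Gene 2.0 ST array, and the labels call the 3 samples of a group independent replicates of 1 cell line.

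D cyclins pair with CDK4 or CDK6 and begin the phosphorylation of the retinoblastoma protein, which frees E2F factors. Cyclin E with CDK2 completes that step and starts DNA synthesis. Cdkn1b (p27) binds cyclin-CDK complexes, and the INK4 proteins of the Cdkn2a and Cdkn2b genes block CDK4 and CDK6. The second product of Cdkn2a, ARF, acts on the p53 pathway. Embryonic stem cells are known for a short G1 phase with strong cyclin E activity, and for little INK4 inhibition.

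CDK4 and CDK6 are close relatives that bind the same D cyclins, and their transcripts gave different results here. Their promoters are therefore shown side by side, as the 250 bases before the RefSeq start of each gene in build GRCm38.p6, on the plus strand. The window of Cdk4 is chr10:127063285-127063534 and that of Cdk6 is chr5:3343643-3343892. Capitals mark the E-box CACGTG, the sequence bound by MYC and related factors,. They also mark the GC box GGGCGG, a site of Sp factors. Each motif was searched on both strands.

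Cdk4: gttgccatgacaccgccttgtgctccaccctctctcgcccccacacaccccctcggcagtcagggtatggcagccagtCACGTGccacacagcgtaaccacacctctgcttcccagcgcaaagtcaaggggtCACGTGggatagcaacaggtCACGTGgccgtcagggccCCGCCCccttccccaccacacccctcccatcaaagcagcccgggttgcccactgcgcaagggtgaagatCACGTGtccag
Cdk6: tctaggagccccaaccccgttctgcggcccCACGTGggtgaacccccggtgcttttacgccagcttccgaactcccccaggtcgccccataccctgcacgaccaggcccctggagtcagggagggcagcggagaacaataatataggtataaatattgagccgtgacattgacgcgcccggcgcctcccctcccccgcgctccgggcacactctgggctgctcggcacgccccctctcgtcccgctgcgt

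The Cdk4 window holds 4 E-boxes and 1 GC box, and the Cdk6 window holds 1 E-box and 0 GC boxes. Among 32851 RefSeq windows of this length, 6.02% have at least 1 E-box, 0.0213% have 4 or more, and 32.7% have a GC box. The Cdk6 window also holds the TATA box letters TATAAA, which occur on either strand in 12.4% of windows, and 22 CpG dinucleotides against 13 in the Cdk4 window and a median of 6 over all windows. The E2F site letters TTTCCCGC are on neither strand of these windows, and occur in 0.895% of all windows. Of the 10 genes, 7 have a window in the table. These matches describe the letters only.

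The deposited RMA values are on a log2 scale, with a median of 5.06 to 5.10 on each array, and pairs of arrays correlated at r = 0.9886 or more over all features. The stem cell markers Pou5f1 (7.64 ± 0.02 untreated, 7.47 ± 0.01 with AA2G), Nanog (11.34 ± 0.03 and 11.17 ± 0.04) and Sox2 (11.15 ± 0.17 and 11.14 ± 0.05; mean ± SD, n = 3) were well above that median in both groups. Not all pluripotency markers were, since Dppa3 (5.20 untreated, 5.16 with AA2G) and Dppa5a (5.15 and 5.08) were close to it. The marker genes Gata6 and Sox17 of primitive endoderm and Cdx2 of trophoblast were between 5.08 and 5.44 on average, but other genes of those lists were higher, among them Sparc (8.17 untreated, 8.51 with AA2G), Lama1 (7.11 and 7.61) and Krt8 (6.73 and 6.37), picked after their values were seen. The array gives no detection call, so values near the median cannot be told from background.

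Cdk6 was the only member feature called in the main fit, and its value was lower with AA2G. Cdk6 (Entrez Gene 12571, chromosome 5), the kinase partner of the D cyclins, stood at 8.39, 8.67 and 8.52 on the untreated arrays and at 7.93, 8.01 and 8.01 on the AA2G arrays (replicates 1 to 3). The groups did not overlap, and the AA2G arrays lay within 0.08 of each other. In the limma model over the whole table Cdk6 fell by 0.54 ± 0.09 on the log2 scale (SE; 95% interval -0.75 to -0.34), to 68.7% of the untreated level, with a Benjamini-Hochberg adjusted p of 0.0419. It was 1 of 9 member features called, where 0.153% of the 23521 features tested were called lower and 0.761% were called in either direction. Its fold change ranked 51 from the most negative. The 9 members included 0 called higher, against 0.608% of all features. In bulk RNA, fewer cells of a type and less RNA per cell cannot be told apart.

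The call of Cdk6 lay close to the threshold. With untreated replicate 1 left out the adjusted p was 0.0481. The call was lost when untreated replicate 2 (0.0994) or 3 (0.191) was dropped, and likewise for AA2G replicate 1 (0.133), 2 (0.147) or 3 (0.163). It was 0.129 when all 41345 features were tested and 0.239 with variances not shared between features. The fold change itself ranged from -0.61 to -0.47 under these settings.

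**Figure D1:**
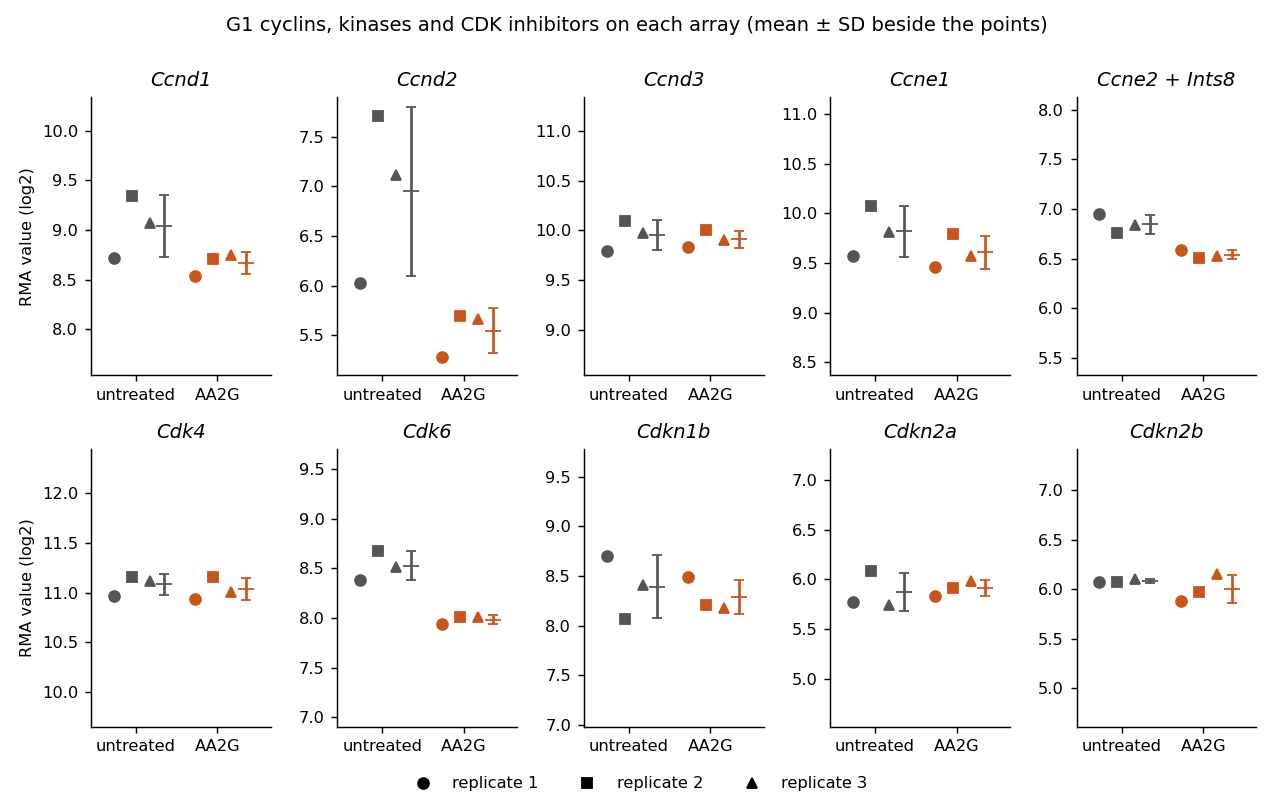
Deposited RMA values (log2, vertical axis, with the same span in every panel) of the 10 member features on each array, untreated in grey and AA2G in orange, with the replicate number as the marker and the group mean ± SD (n = 3) beside the points. The groups are separate for Cdk6, Ccnd2 and the feature shared by Ccne2 and Ints8, and overlap in the other 7 panels.

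Cdk4 (12567, chromosome 10), the other kinase of the D cyclins, stood at 10.97, 11.16 and 11.12 on the untreated arrays and 10.94, 11.16 and 11.01 with AA2G. The highest arrays of both groups had the same value to 2 decimals. Its fold change was -0.05 ± 0.09 (95% interval -0.25 to 0.16; limma adjusted p = 0.925), so the interval does not reach the value of -0.54 fitted for Cdk6. The difference between the kinases was not itself tested.

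Among the D cyclins, which couple growth factor signals to G1 entry, Ccnd2 had the largest fitted difference and the largest spread. Ccnd2 (12444, chromosome 6) stood at 6.03, 7.71 and 7.11 on the untreated arrays, and at 5.29, 5.69 and 5.66 on the AA2G arrays. All AA2G arrays were below all untreated arrays, and untreated replicate 1 lay nearer to the highest AA2G array than to the other untreated arrays. The fold change of -1.40 ± 0.37 (SE; 95% interval -2.24 to -0.56), or 37.8% of the untreated level, was the most negative of all 23521 features. It did not pass the limma threshold (adjusted p = 0.196), and its unadjusted p ranked 586 from the smallest. The AA2G values are close to the array medians, where background may make an array understate a fold change.

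The untreated arrays spanned 1.68 log2 units for Ccnd2, a 3.21-fold range, with an SD of 0.85 against a median SD of 0.11 over all features. Only 1 other tested feature, that of the zinc finger gene Zxdb (named here after its value was seen), had a larger SD between untreated arrays, at 0.87, so that with Ccnd2 itself 0.0085% of features were at or above its SD. That Ccnd2 varies between replicates was known before the genes were read array by array, so this share is a description only. With AA2G the span of Ccnd2 was 0.41 and the SD 0.23, against a median of 0.10. Without untreated replicate 1 the fold change was -1.86 (limma adjusted p = 0.0185), and with arrays weighted by their quality it was -1.46 (adjusted p = 0.0341). Leaving out each of the other 5 arrays gave values between -1.48 and -1.02, with adjusted p from 0.314 to 0.494.

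**Figure D2:**
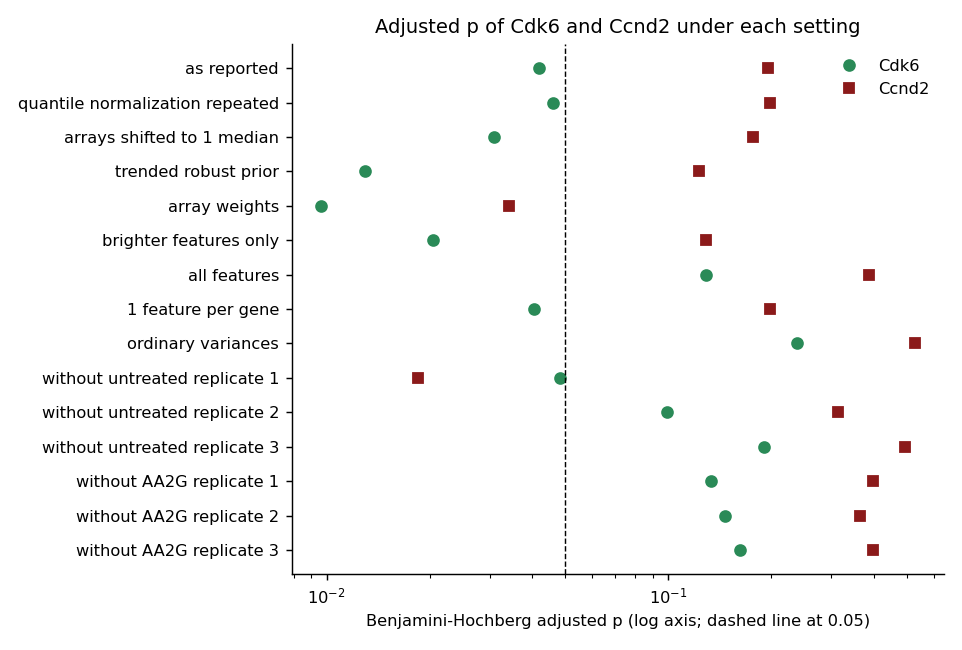
Benjamini-Hochberg adjusted p of Cdk6 and Ccnd2 (horizontal log axis, dashed line at 0.05) in the limma fit as reported and under other settings. Of the settings drawn, Cdk6 crosses the line when any array other than untreated replicate 1 is left out, when all features are tested and with ordinary variances, and Ccnd2 passes without untreated replicate 1 (0.0185) and with array weights (0.0341).

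Ccnd1 (12443, chromosome 7) stood at 8.72, 9.34 and 9.07 on the untreated arrays and at 8.54, 8.71 and 8.75 with AA2G. The groups overlapped only between untreated replicate 1 and AA2G replicate 3. The fold change was -0.38 ± 0.15 (SE; 95% interval -0.72 to -0.03) with an unadjusted p of 0.0358, and it did not pass (limma adjusted p = 0.458). The untreated SD of 0.31 was again wider than the 0.11 with AA2G. Ccnd3 (12445, chromosome 17) stood at 9.79, 10.09 and 9.97 on the untreated arrays and 9.83, 10.0 and 9.91 with AA2G. The Ccnd3 groups overlapped, at -0.04 ± 0.10 (95% interval -0.26 to 0.18; adjusted p = 0.947). The 3 D cyclins therefore ran from -1.40 to -0.04, and 0 of them were called, where 0.761% of all features were called.

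The E cyclins activate CDK2 at the entry to S phase. Ccne1 (12447, chromosome 7) stood at 9.57, 10.08 and 9.81 on the untreated arrays and 9.46, 9.79 and 9.57 with AA2G. Its untreated replicate 1 equalled AA2G replicate 3 to 2 decimals, and the fold change of -0.21 ± 0.14 (SE; 95% interval -0.53 to 0.11) did not pass (limma adjusted p = 0.710). The feature shared by Ccne2 and Ints8 stood at 6.95, 6.75 and 6.84 on the untreated arrays and 6.59, 6.50 and 6.52 with AA2G. These groups did not overlap, and which of the genes gives the signal cannot be told from 1 feature. In the fit of all 41345 features, of which 0.317% were called, its fold change was -0.31 ± 0.08 (adjusted p = 0.350).

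The inhibitors showed no call, where 0.761% of all features tested were called. Cdkn1b (12576, chromosome 6) stood at 8.70, 8.07 and 8.41 on the untreated arrays and 8.49, 8.21 and 8.17 with AA2G. The AA2G arrays lay within the untreated range, at -0.10 ± 0.16 (SE; 95% interval -0.47 to 0.27; limma adjusted p = 0.900). Cdkn2a (12578), which encodes p16 and ARF from 1 locus, stood at 5.77, 6.09 and 5.74 on the untreated arrays and 5.83, 5.92 and 5.99 with AA2G, a fold change of 0.04 ± 0.11 (interval -0.20 to 0.29; adjusted p = 0.946). A single feature does not separate its products. Cdkn2b (12579), which encodes p15, stood at 6.07, 6.07 and 6.10 and at 5.88, 5.97 and 6.15, a fold change of -0.08 ± 0.09 (interval -0.28 to 0.12; adjusted p = 0.847). Cdkn2a and Cdkn2b are neighbours on chromosome 4, with 0 protein-coding genes between them in RefSeq, and their 12 values lay between 5.74 and 6.15.

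**Figure D3:**
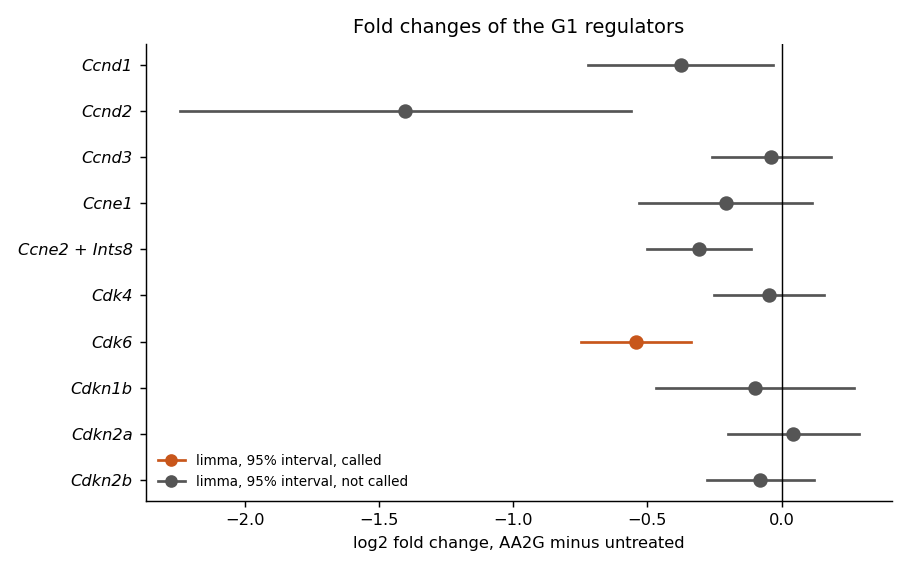
Fitted log2 fold change (AA2G minus untreated, horizontal axis) of the 10 member features, with the 95% interval of the limma model as a line. Cdk6, in orange, is the called feature, and the widest interval is that of Ccnd2, from -2.24 to -0.56.

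Of the 9 features with a single symbol, 8 had a negative fold change, against 52.3% of all features tested. An unadjusted p under 0.05 was reached by 3 of them (Cdk6, Ccnd2 and Ccnd1), where 5.06% of all features were lower at that level and 9.71% passed in either direction. The groups were separate, with AA2G lower, for 2 of the 9 (Cdk6 and Ccnd2), where 8.48% of all features were separate and lower and 15.7% were separate in either direction. The members were chosen with earlier results of these data known, so these counts are a description only. With 3 arrays against 3, an exact permutation test of a single gene cannot give a p below 0.1.

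The order of the untreated replicates was shared by most of the cyclin and kinase genes, but the size of the spread was not. The untreated SD was 0.10 for Cdk4 and 0.85 for Ccnd2, against a median of 0.11 over all features. Among the untreated arrays, replicate 2 was the highest, replicate 3 the middle and replicate 1 the lowest for Ccnd1, Ccnd2, Ccnd3, Ccne1, Cdk4 and Cdk6, which is 6 of the 6 cyclin and kinase features with a single symbol. That order held for 23.3% of all features tested. Cdkn1b had the reverse order, with replicate 1 the highest and replicate 2 the lowest, as 21.4% of all features did. Among the AA2G arrays the order 2, 3, 1 recurred for 5 of the 9 member features, namely Ccnd2, Ccnd3, Ccne1, Cdk4 and Cdk6, against 22.6% of all features. This pattern was described after the values were seen, and a single array has no error of its own. The feature shared by Ccne2 and Ints8 also had the reverse order, so this order did not hold for every cyclin. In untreated replicate 1 those 6 features were at their lowest of the group and Cdkn1b at its highest, 0.63 log2 units above replicate 2.

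Mean levels of cell type marker lists were compared between the same arrays. The mean over 7 neuroectoderm features was 6.08, 5.92 and 6.04 in untreated replicates 1 to 3, and 6.01, 5.95 and 6.04 with AA2G. Over 6 mesoderm features it was 5.37, 5.49 and 5.38 in untreated cells, and 5.32 to 5.34 with AA2G. Over 12 primitive endoderm features it was 5.74, 5.82 and 5.76 in untreated cells and 5.77 to 5.79 with AA2G, and over 18 pluripotency features it was 9.27, 9.30 and 9.28 in untreated cells and 9.19 to 9.26 with AA2G. Trophoblast means (11 features) lay between 5.40 and 5.56 and fibroblast means (11 features) between 5.43 and 5.49 over the 6 arrays. Limma called 0 features of these lists, where 0.761% of all features were called. With an unadjusted p below 0.05, 3 were higher and 8 lower of 65. At that level 5.06% of all features were lower and 9.71% passed in either direction. The means hide single genes, with log2 fold changes of 0.50 for the laminin gene Lama1, 0.34 for Sparc, which also acts in the matrix, and -0.35 for the keratin gene Krt8 (limma adjusted p from 0.0706 to 0.0925). In the pluripotency list Klf4 was at -0.31 (limma adjusted p = 0.127) and Klf2 at 0.24 (0.272). The means also hide spread between arrays. Eomes, a trophoblast marker picked after its values were seen, had the largest untreated SD of the listed markers, at 0.54. It stood at 6.63, 5.58 and 5.94 on the untreated arrays and 6.07, 5.40 and 5.77 with AA2G. In both groups this was the reverse of the Ccnd2 order. Otx2 had the reverse order in both groups too, as did Fgf4 and Tdgf1 of the pluripotency list. Dppa4 and Esrrb of that list had the order of Ccnd2 in both, as did Foxa2, Elf5 and Col3a1 of other lists. These genes were also picked after their values were seen. Of all features tested, 23.3% had the untreated order of Ccnd2 and 21.4% the reverse. The part of the markers in the spread of Ccnd2 was not tested.

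**Figure D4:**
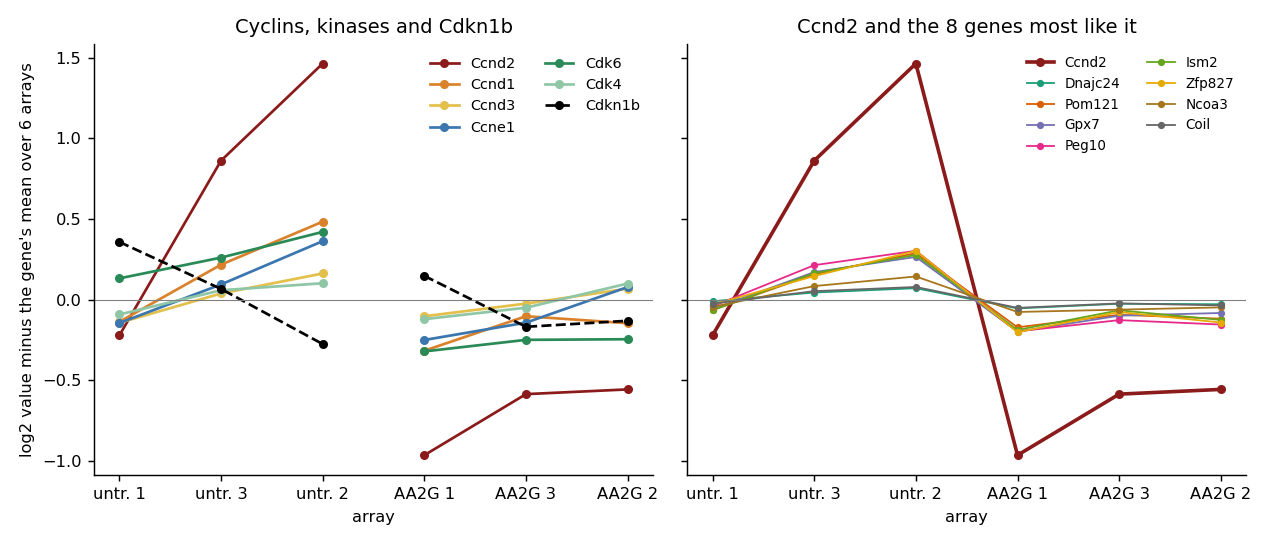
Log2 value of each gene minus its own mean over the 6 arrays (vertical axis), with the arrays of each group placed in the order of their Ccnd2 value (horizontal axis). On the left, the 6 cyclin and kinase features with a single symbol are lowest in untreated replicate 1 of their group while Cdkn1b (dashed) is highest there (the feature shared by Ccne2 and Ints8, highest there too, is not drawn), and on the right the 8 genes most like Ccnd2 follow it with ranges of 0.50 or less.

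The likeness of other genes to Ccnd2 was measured by Pearson's r over the 6 arrays, as a description. The arrays share the group difference and the spread between untreated arrays, and with 23521 features many reach a high r over 6 points. Ccnd1 had r = 0.98 (Spearman's rho 0.83) and ranked 17 of all features, Cdk6 had r = 0.95 (rho 1.00) and Ccne1 0.87. Ccnd3 and Cdk4 were at 0.70 and 0.66, Cdkn2b at 0.46, Cdkn2a at 0.28 and Cdkn1b at -0.35. The 8 brighter genes outside the member list with the highest r were Dnajc24, Pom121, Gpx7, Peg10, Ism2, Zfp827, Ncoa3 and Coil, with r from 0.99 to 1.00. Pom121 encodes a nucleoporin, Peg10 is an imprinted gene of retrotransposon origin, Ncoa3 encodes a nuclear receptor coactivator and Coil encodes coilin of the Cajal bodies. Their values moved far less than those of Ccnd2. Peg10 stood at 8.41, 8.76 and 8.67 on the untreated arrays and 8.26, 8.30 and 8.33 with AA2G (-0.32 ± 0.10, SE; limma adjusted p = 0.297). Of the 8 genes 0 were called, where 0.761% of all features were called.

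Other genes of G1 control were read from a list of 55, of which 54 were measured by 61 features. The list holds CDK2, the other inhibitors, the retinoblastoma and E2F families, the ubiquitin ligases that degrade cyclins and inhibitors, and MYC. In limma 0 of the 61 were called in either direction, where 0.761% of all features were called. With an unadjusted p below 0.05, 4 were lower and 0 higher. At that level 5.06% of all features were lower and 9.71% passed in either direction. The median fold change was -0.04 and 70.5% were negative, against a median of -0.01 and 52.3% over all features.

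The lowest p of this list belonged to Cdkn1c, the imprinted inhibitor p57, which stood at 6.17, 6.57 and 6.32 on the untreated arrays and 5.78, 5.73 and 5.70 with AA2G. The groups did not overlap, and the fold change was -0.61 ± 0.11 (SE; limma adjusted p = 0.0510). Over the alternatives its adjusted p ran from 0.00990 to 0.297, and it passed in 6 of 15, 1 of them the fit without untreated replicate 1 (0.0437). Mdm2, the ubiquitin ligase of p53, was at -0.31 ± 0.10 (adjusted p = 0.333), with untreated arrays at 9.99, 9.71 and 9.83 and AA2G arrays at 9.68, 9.42 and 9.49. E2f3, an activating E2F, stood at 7.54, 7.59 and 7.53 on the untreated arrays and 7.29, 7.33 and 7.42 with AA2G (-0.21 ± 0.07; adjusted p = 0.357). Cdc25a, the phosphatase that activates CDK2, stood at 8.97, 9.27 and 9.12 and at 8.86, 8.96 and 8.85 (-0.23 ± 0.09; adjusted p = 0.461). The groups of Mdm2, E2f3 and Cdc25a did not overlap either. In all, 6 of the 61 features were separate and lower and 4 separate and higher, against 8.48% of all features separate and lower and 15.7% in either direction.

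E2F target genes of DNA synthesis make up the step downstream of the cyclins. Of 25 listed genes 24 were measured by 27 features, and 0 were called in limma, with 0 at an unadjusted p under 0.05, where 0.761% and 9.71% of all features passed. The groups were separate for 9 of the 27, with 8 lower and 1 higher, against 8.48% of all features separate and lower and 15.7% in either direction. The median fold change was -0.04, and all 27 values lay between -0.13 and 0.13. Mcm7, a subunit of the replicative helicase, stood at 10.86, 10.87 and 10.83 on the untreated arrays and 10.72, 10.77 and 10.67 with AA2G (-0.13 ± 0.07, SE; limma adjusted p = 0.603). The other genes with the smallest p were Mybl2, a transcription factor of proliferating cells, at -0.10 and -0.08 on its 2 features, and Rrm2, a ribonucleotide reductase subunit, at -0.09 on 1 feature and 0.05 on its other.

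**Figure D5:**
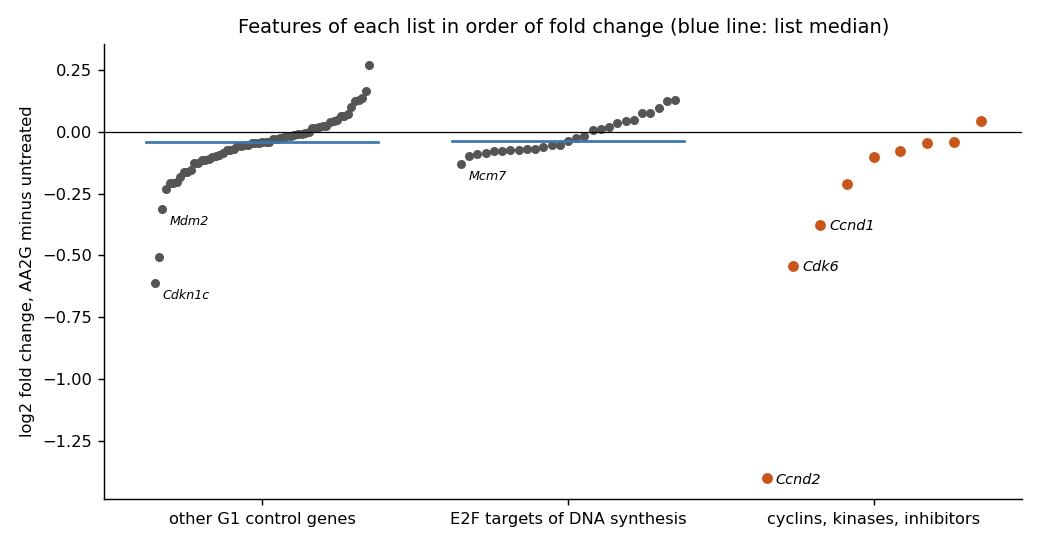
Log2 fold change (AA2G minus untreated, vertical axis) of each feature, in order of size within 3 lists, with a blue line at the median of the 61 G1 control features and of the 27 E2F target features. Both medians are -0.04, the E2F targets stay within 0.13 of 0, and Ccnd2 lies below every other point.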

How the data were processed

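RNA of 3 untreated and 3 AA2G cultures was hybridised to Mouse Gene 2.0 ST arrays. The deposited log2 values were made by the authors with RMA; the submitters' processing notes name Affymetrix Expression Console, with no version. RMA equalises the distributions of the arrays, so a change in total RNA is not seen. The table has 6 sample columns, all used. Genes were named through the platform annotation, and 9 of 9 single-symbol members matched RefSeq by Entrez Gene identifier.

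Groups were compared with lmFit and eBayes of limma 3.58.1 (R 4.3.3; no covariate, two-sided tests), with Benjamini-Hochberg adjustment over the 23521 features with 1 symbol and calls at an adjusted p under 0.05. The procedure was tested on simulated data. Alternatives were repeated quantile normalization, a common median, brighter features (mean above percentile 40), all features, array weights, a replicate block, a trended and robust prior, 1 feature per gene, ordinary variances and each array left out. Named genes are all members, the 4 smallest p of each list and the 8 brighter genes most like Ccnd2. Predicted genes and Rik clones were left out of those 8. The members and lists were chosen with earlier results of these data known. The number of arrays limits the precision, and p-values measure the spread between these samples.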

Additional observations from a re-analysis of the deposited data

How the results depend on the processing

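The fold change of each of the 9 members with a single-symbol feature was recomputed under 15 alternatives, and the feature shared by Ccne2 and Ints8 was fitted only once, with all features. Cdk6 was lower in all 15 and was called in 7. Its call was lost in the fit with all features (-0.54, adjusted p = 0.129), with ordinary variances (-0.54, 0.239), with the replicate block (-0.54, 0.0616) and without 5 of the 6 arrays in turn (range over the 6 arrays -0.61 to -0.47). Ccnd2 was lower in all 15 and passed with array weights (-1.46) and in 1 of the fits with an array left out (range -1.86 to -1.02). Ccnd1, Ccne1 and Cdkn2b kept a negative value under all 15 and were called in 0. Signs turned with an array left out for Ccnd3 (range -0.12 to 0.033), Cdk4 (-0.11 to 0.0023), Cdkn1b (-0.26 to 0.054) and Cdkn2a (-0.019 to 0.15), and these genes were called under 0 alternatives. The cause was not tested.

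The 179 calls became 277 with the trended robust prior, 496 with array weights, 13 with ordinary variances and 64 to 131 with an array left out. The 36 lower calls became 79, 193 and 4 under those settings, 86 with brighter features only, 20 with all features and 6 to 17 with an array left out. Among the 61 G1 control features 1 was called, in place of 0, with 1 feature per gene, array weights, arrays shifted to 1 median, brighter features only and the trended robust prior, and 0 to 1 with an array left out. That call was Cdkn1c each time. The E2F targets had 0 calls throughout.

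Deviations of same-numbered arrays correlated at 0.23, 0.22 and 0.02, and the main fit did not pair the samples by replicate number. Differently numbered arrays were not compared, so these values do not settle whether the numbers pair the samples. With the replicate block 155 features were called, 25 of them lower, and no member call other than that of Cdk6 changed.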

Other observations

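Myc, whose product binds the E-box and is known as an activator of D cyclin genes, had the widest span between untreated arrays of the 61 G1 control features, at 1.13 log2 units. It is named here after its values were seen. Myc stood at 7.67, 8.80 and 8.43 on untreated replicates 1 to 3 and at 7.38, 8.07 and 7.93 with AA2G. Both groups had the array order seen for Ccnd2, and the groups overlapped. The fold change was -0.51 ± 0.28 (SE; limma adjusted p = 0.645). Mycn, of the same family and list, stood at 8.11, 7.70 and 7.85 on the untreated arrays and 8.11, 7.63 and 7.98 with AA2G. That is the reverse order in both groups. A link between Myc and the D cyclins was not tested. Of the 61 features, 17 had the untreated order 2, 3, 1 and 15 the reverse, against 23.3% and 21.4% of all features.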
